A study of Drosophila melanogaster with 2 samples.

Results

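Of the 3350 binding sites kept as reproducible for the Klf15 product Bteb2 in the fly embryo, 795 (23.7%) lay at divergent promoters, where 2 genes start close together and are read away from each other. A peak was counted when its summit, the position of highest signal, had a start site (TSS) on the minus strand and one on the plus strand within 500 bp, the minus-strand TSS at the lower coordinate and the start sites belonging to different genes. The rule used positions and annotation only, and no measured level. The 795 peaks belonged to 742 gene pairs, of which 689 had 1 peak and 53 had 2. Both partners were protein-coding at 738 peaks, a noncoding RNA faced a protein-coding gene at 46, a tRNA or a pseudogene faced one at 5 each, and a pair of tRNAs faced each other at 1.

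The data came from chromatin immunoprecipitation and sequencing with an anti-GFP antibody on whole Drosophila melanogaster embryos of mixed sex, collected at 4 to 20 h by the samples' source name, since the number in their age field is damaged. The embryos came from a transgenic line that stably expressed Bteb2 with GFP fused at its C-terminus, so the values describe the tagged protein averaged over all cells of the embryo. There were 2 libraries in 1 group, called biological replicates 1 and 3 by the labels, and no other condition. No control library was analysed here, and because nothing says how the embryo collections were kept apart, the spread between libraries may be partly technical. All files were peak lists without reads, so the depth of the libraries is unknown and no error of a single peak's signal can be given beyond the values of both libraries.

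Divergent gene pairs are common in the compact fly genome, where neighbouring genes often share the stretch of open chromatin between their starts. Many such promoters serve genes used in nearly every cell, and they tend to carry core promoter elements other than the TATA box. Among these are the DNA replication-related element (DRE), bound by Dref and, through its CGATA core, by the insulator protein BEAF-32, and motif 1, bound by M1BP. Bteb2 itself is a zinc finger protein of the KLF and SP family, known for binding boxes rich in G and C.

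Stretches between the start sites are printed here to show the DNA that the partners share at some of the peaks. The summit lies within the stretch at all but Chro/Ssl1, where it is inside Chro. They are the 6 strongest of those that lay wholly outside annotated exons and spanned 40 to 300 bp, followed by the strongest such stretches with a DRE or a motif 1. Each is the plus strand of dm6, from the base after the minus-strand TSS to the base before the plus-strand TSS, and capitals mark matches to the DRE, motif 1, motif 7, the E-box or the CTCF motif.
Chro/Ssl1: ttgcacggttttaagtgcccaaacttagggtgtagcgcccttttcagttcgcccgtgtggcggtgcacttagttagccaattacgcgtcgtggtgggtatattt
Art3/mRpS10: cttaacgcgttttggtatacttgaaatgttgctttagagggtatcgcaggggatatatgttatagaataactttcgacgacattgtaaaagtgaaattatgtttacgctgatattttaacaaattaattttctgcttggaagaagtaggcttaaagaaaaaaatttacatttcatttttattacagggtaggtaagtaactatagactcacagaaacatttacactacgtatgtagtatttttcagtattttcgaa
Tcs5/CHMP2B: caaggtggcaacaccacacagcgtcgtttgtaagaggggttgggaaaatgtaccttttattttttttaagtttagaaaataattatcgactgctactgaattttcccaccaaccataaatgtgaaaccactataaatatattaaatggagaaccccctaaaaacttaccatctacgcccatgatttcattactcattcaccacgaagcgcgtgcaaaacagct
Atat/Shc: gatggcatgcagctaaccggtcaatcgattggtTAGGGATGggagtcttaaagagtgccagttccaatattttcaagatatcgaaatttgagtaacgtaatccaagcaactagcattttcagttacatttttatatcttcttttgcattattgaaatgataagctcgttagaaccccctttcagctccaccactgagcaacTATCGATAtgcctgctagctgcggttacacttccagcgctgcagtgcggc
Mkk4/SLIRP2: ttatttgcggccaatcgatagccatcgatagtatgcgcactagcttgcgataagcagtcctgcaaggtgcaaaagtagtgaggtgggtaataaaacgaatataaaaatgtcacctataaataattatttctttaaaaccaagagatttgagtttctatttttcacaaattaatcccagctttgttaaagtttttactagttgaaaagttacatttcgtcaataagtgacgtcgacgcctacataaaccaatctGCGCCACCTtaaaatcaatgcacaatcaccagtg
Mnat9/CG1792: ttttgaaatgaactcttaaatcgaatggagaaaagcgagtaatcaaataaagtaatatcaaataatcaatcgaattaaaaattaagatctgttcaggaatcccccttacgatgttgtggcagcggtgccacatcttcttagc
Gmd/CG3792: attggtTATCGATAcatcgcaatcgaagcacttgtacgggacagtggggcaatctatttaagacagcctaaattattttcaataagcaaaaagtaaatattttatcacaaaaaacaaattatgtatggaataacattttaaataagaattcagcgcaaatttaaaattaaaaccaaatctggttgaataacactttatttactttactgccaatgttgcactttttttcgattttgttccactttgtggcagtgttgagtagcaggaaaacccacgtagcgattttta
CG9356/CG8135/BBIP1: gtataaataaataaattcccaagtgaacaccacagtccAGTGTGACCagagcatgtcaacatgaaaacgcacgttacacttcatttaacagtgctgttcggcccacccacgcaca
CG10214/CG10375: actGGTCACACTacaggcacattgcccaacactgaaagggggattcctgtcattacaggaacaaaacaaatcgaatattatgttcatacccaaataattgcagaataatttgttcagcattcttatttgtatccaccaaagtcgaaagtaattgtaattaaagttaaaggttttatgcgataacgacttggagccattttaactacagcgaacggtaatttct
In this order, Chro/Ssl1 is chr3L:22878985-22879088, Art3/mRpS10 is chr3R:15229409-15229664, Tcs5/CHMP2B is chr3L:5139396-5139618. Then Atat/Shc is chr3L:9426759-9427009, Mkk4/SLIRP2 is chr3R:8650797-8651083, Mnat9/CG1792 is chr3R:31616161-31616302. Then Gmd/CG3792 is chr2L:4977024-4977311, CG9356/CG8135/BBIP1 is chr3R:9404270-9404384, CG10214/CG10375 is chr3R:23767489-23767711. Of the 6 strongest stretches, 4 held no match to any of these elements, Atat/Shc held a DRE and a motif 7, and Mkk4/SLIRP2 held the CTCF motif. CG8135 and BBIP1 share their TSS, and Gmd encodes an enzyme of fucose synthesis. The DRE of Atat/Shc lay towards the plus-strand gene and that of Gmd/CG3792 close to the start of the minus-strand gene. Motif 1 was read in the plus-strand direction in CG10214/CG10375 and in the minus-strand direction in CG9356/CG8135.

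Signal is the authors' value of strength for each peak. Its scale is not stated in the sources used here, so it was compared within a list only. In the pooled list it ran from 66.0 to 869 over the divergent peaks, with a median of 104. The strongest lay at Chro and Ssl1, which encode the interband protein Chromator and a subunit of the repair and transcription factor TFIIH. It had rank 9 of all optimal peaks with a pooled signal of 869, and signals of 523 in replicate 1 and 346 in replicate 3, where its ranks were 10 and 9. Its summit was not in the short stretch of 105 bp between the starts but 103 bp inside Chro. Next came the peak between Art3, a protein arginine methyltransferase, and mRpS10, a protein of the mitochondrial ribosome, with 505 in replicate 1 and 349 in replicate 3. A second mitochondrial ribosomal gene, mRpS23, shared a peak with the Arf GTPase-activating protein gene CenG1A at 509 and 283. All 3 were thus among the 20 strongest peaks of each library by rank.

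The next pairs joined genes of unlike function. Tcs5, a kinase subunit of the complex that modifies tRNAs, faced CHMP2B, a subunit of the membrane-remodelling ESCRT-III complex, with 432 in replicate 1 and 304 in replicate 3. Fbw5, an F-box protein, faced CG9147 with 407 and 275. Pdrg1 faced Pal1, a peptide-amidating enzyme, with 414 and 235. The tubulin acetyltransferase gene Atat faced Shc, an adaptor of receptor tyrosine kinases, with 342 and 250. The ribosome assembly factor gene eIF6 faced the antisense RNA gene asRNA:CR45928, with 361 and 212. The remaining pairs of the 12 strongest were CG11309/CG7632, Pex11ab/CG8320, Mkk4/SLIRP2 and CG5611/Mtl, whose signals ran from 245 to 367 in replicate 1 and from 199 to 239 in replicate 3. Pex11ab acts in peroxisome division and Mkk4 is a kinase of the JNK pathway.

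**Figure D1:**
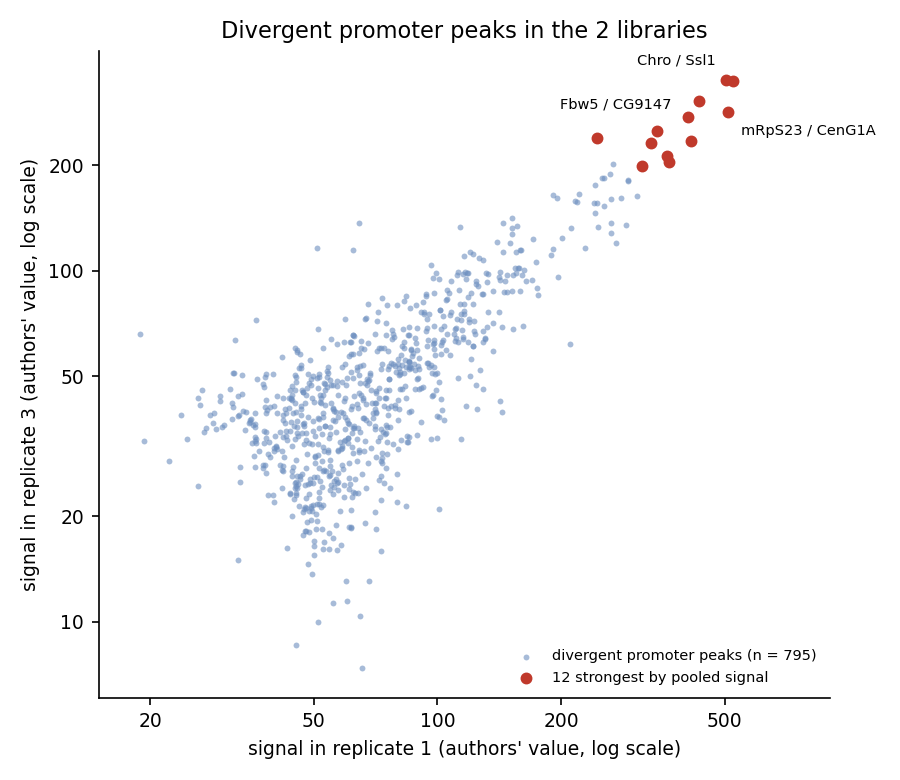
Signal of each divergent promoter peak in replicate 1 (horizontal) and replicate 3 (vertical), both on log axes in the authors' units. Red points are the 12 strongest peaks of the pooled list, which lie between 245 and 523 in replicate 1 and between 199 and 349 in replicate 3, at the upper end of both axes. A replicate peak matched by more than 1 divergent peak gives its signal to each of them.

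All 795 peaks matched a peak in the relaxed list of each replicate, by summits within 100 bp or by overlap. This is partly built into the optimal list, since it was kept for reproducibility. Such a match need not be separate, since 2 divergent peaks could match the same replicate peak. A stricter measure was whether a summit lay within 100 bp of one among the 3350 strongest peaks of each replicate. This held in both replicates for 556 of the divergent peaks (69.9%), where the share over all optimal peaks was 67.9%. A further 129 were among the strongest of replicate 1 only, 99 of replicate 3 only, and 11 of neither. The 970 optimal peaks upstream of a promoter with no such partner, called single-promoter peaks from here on, reached 70.9% (odds ratio 0.953, 95% interval 0.777 to 1.17, adjusted p = 0.675 over 7 comparisons, by Fisher's exact test on both sides). The interval allows a difference in either direction. With 250 bp in place of 500 bp in the rule, which redefines both sets, the share was 74.0% for the 515 divergent peaks left and 67.6% for the single-promoter peaks (odds ratio 1.37, Fisher's exact p = 0.0106, unadjusted). Recovery was tied to signal by its definition, since the pooled signal is close to the sum of the signals of both libraries: with the divergent peaks cut into 4 equal groups by signal, it was 99.0% in the strongest, 94.97% and 71.4% in the next 2 groups and 14.6% in the weakest. The weakest group had signals of 66.0 to 82.6.

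The signal of divergent peaks was not shown to differ from that of other upstream promoter peaks. The median signal was 104 in both sets, and 55.8% of divergent against 53.4% of single-promoter peaks lay above the optimal median of 98.8 (odds ratio 1.10, 95% interval 0.914 to 1.33, adjusted p = 0.366 by Fisher's exact test). With both sets redefined at 250 bp, 60.4% of the 515 divergent peaks and 50.9% of the single-promoter peaks were above it (odds ratio 1.47, Fisher's exact p = 0.000547, unadjusted). Against the 211 optimal peaks that lay downstream of a single promoter, 46.0% of which were above the median, divergent peaks were stronger (odds ratio 1.49, 1.10 to 2.02, adjusted p = 0.0180 by Fisher's exact test), a call that was lost with both sets redefined at 1000 bp (odds ratio 1.19, p = 0.195 unadjusted). Divergent peaks made up 33 of the 100 strongest optimal peaks and single-promoter upstream peaks 32. At the edge of the distance rule, the 29 peaks whose farther TSS was the last 50 bp inside 500 bp had a median signal of 94.1, and the 22 in the next 50 bp outside it had 84.4.

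Seen from the promoters, a divergent arrangement went with a peak far more often than a single one. For this count, start sites within 500 bp on a strand were merged into 1 promoter, and a promoter was divergent when an opposite-strand TSS lay within 1000 bp upstream. Of all 20155 annotated promoters 10.5% had an optimal summit within 250 bp. The share was 21.99% for the 6304 divergent promoters (1386 with a peak) and 5.33% for the 13851 others (738 with a peak), an odds ratio of 5.01 with a 95% interval of 4.55 to 5.51 (adjusted p = 2.87e-255 by the same Fisher's exact test). A peak between close partners counts for both of them in these shares. When each summit was given to its nearest promoter alone, a choice made after the data were seen, the shares were 14.3% and 5.30% and the odds ratio was 2.97 (p = 9.00e-96, Fisher's exact test, unadjusted). How active the promoters of either kind are in the embryo was not measured here.

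The share with a peak differed with the distance between the start sites. It was 26.1% of promoters (95% exact binomial interval 23.3 to 29.0) with a partner at up to 100 bp, 21.2% (18.6 to 24.0) above 100 and up to 200 bp, and highest, 35.9% (33.2 to 38.6), above 200 and up to 300 bp. Beyond that it fell to 27.4% (24.4 to 30.5), then 14.8% (12.03 to 17.8) above 400 and up to 500 bp. From 500 to 750 bp it was 10.7% and from 750 to 1000 bp 9.63%, with intervals of 8.94 to 12.7 and 7.48 to 12.2, which include the 10.5% of all promoters and lie above the 5.33% of single ones. These binomial intervals cover counting error only. A summit within 250 bp of both starts counts for both partners, which is easier for close pairs, so the classes are not counted alike. Above 200 and up to 300 bp, 434 promoters with a peak stood beside 248 divergent peaks. Above 400 and up to 500 bp, 90 stood beside 83. How far this counting shapes the differences between classes was not tested. The median signal of the divergent peaks was also highest, at 118, in the class above 200 and up to 300 bp, and lay between 96.0 and 103 in the other 5 classes up to 750 bp.

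**Figure D2:**
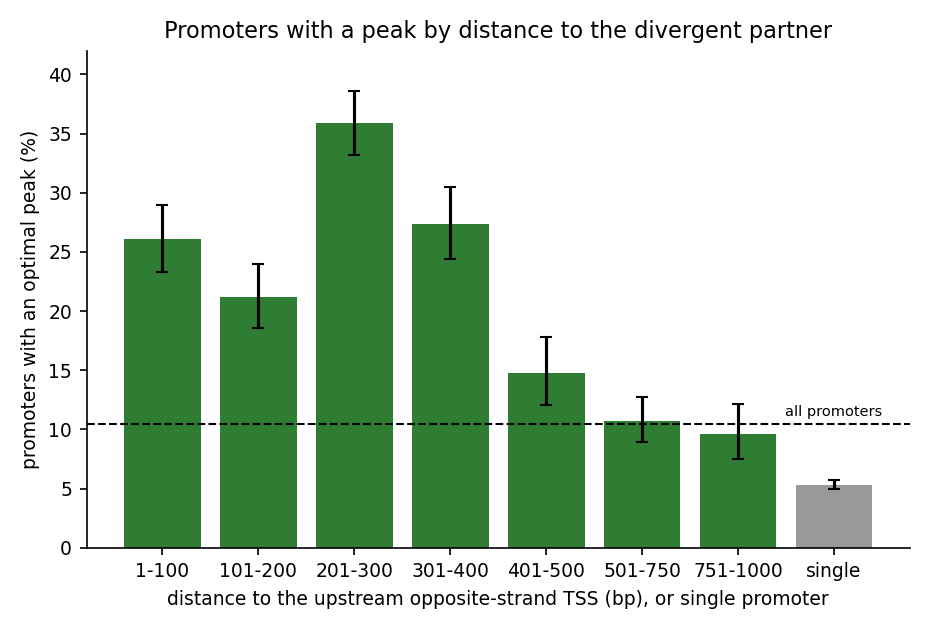
Percent of annotated promoters with an optimal summit within 250 bp of the TSS, by the distance in bp to the upstream TSS on the opposite strand, with single promoters in grey; bars are shares, lines 95% exact binomial intervals, the dashed line all promoters. The class above 200 and up to 300 bp is the highest at 35.9%, and single promoters are the lowest at 5.33%. A summit near both starts of a pair counts for both partners, more often in close pairs.

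Divergent promoters also became more frequent towards the top of the signal ranking. In the pooled relaxed list of 30000 peaks, 2409 summits met the same rule, and 795 of them (33.0%) were optimal peaks, where 11.2% of all relaxed peaks were. By rank, 16.1% of the summits just below the optimal list, down to rank 6000, were at divergent promoters. The share was 11.3% in the next 3000, 7.40% in the 3000 after those, and 2.42% in the last 5000. The relaxed lists hold background regions as well as binding sites, so the fall with rank mixes both. The 1614 divergent peaks of the relaxed list that were not optimal are called lower-ranked divergent peaks below, and their signals ran from 15.4 to 65.8.

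The summits sat in the stretch between the start sites. The median distance between the nearest start sites was 278 bp (quartiles 183 and 377, range 6 to 872), with the nearer TSS at a median of 78 bp from the summit and the farther at 202 bp. For 643 peaks (80.9%) the summit lay between the start sites, against 1003 of the 1614 lower-ranked divergent peaks (62.1%; odds ratio 2.58, adjusted p = 6.32e-21 by Fisher's exact test, 95% interval 2.10 to 3.16). This share depends on the distance between the start sites, which was not compared between both sets. Neither direction was favoured, with 304 of the 643 summits nearer to the minus-strand TSS and 337 nearer to the plus-strand TSS. Their median distance from the midpoint was 55.5 bp, where the median distance between the start sites was 301 bp. On a scale from 0 at the minus-strand TSS to 1 at the plus-strand TSS, the quartiles of their position were 0.316 and 0.716. These quartiles lie somewhat closer together than an even spread would place them, a difference that was not tested. The nearer TSS was a median of 88 bp away for these 643.

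The other 152 summits lay inside one of the partners, 74 on the minus-strand gene and 78 on the plus-strand gene. They were a median of 40.5 bp past the start of the gene they overlapped and 158.5 bp upstream of the partner they faced. Most came from close pairs: the summit was between the start sites for 30.9% of the peaks at pairs up to 100 bp apart, for 61.5% above 100 and up to 200 bp, and for 89.9% above 200 and up to 300 bp. Of the 12 strongest pairs, Chro/Ssl1, Fbw5/CG9147, eIF6/asRNA:CR45928, CG11309/CG7632 and Pex11ab/CG8320 were of this kind. Their start sites were 29 to 134 bp apart, and their summits lay 24 to 103 bp inside a partner.

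**Figure D3:**
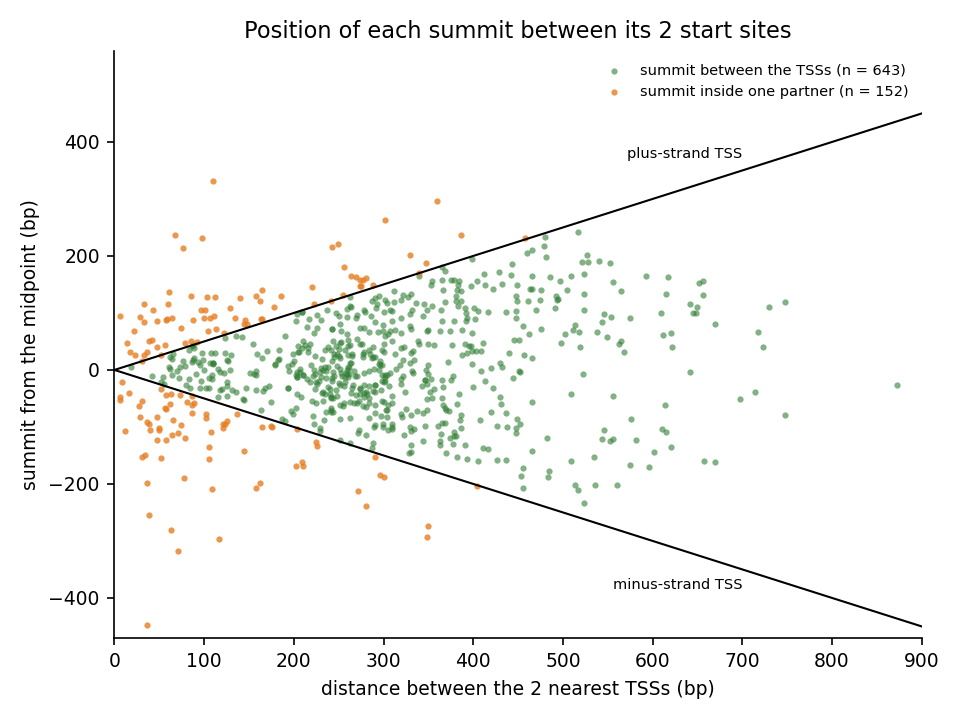
Each divergent promoter peak by the distance in bp between its 2 nearest start sites (horizontal) and the distance in bp of its summit from their midpoint (vertical, positive towards the plus-strand gene); black lines are the start sites. The 643 green summits lie between the lines and the 152 orange ones outside, mostly where the start sites are close, which the 500 bp rule favours.

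The DNA at the summits was AT-rich within flanks of balanced composition. In the 201 bp around the summit the GC content was 35.6% ± 6.39 (SD over 795 windows), against 36.6% ± 6.86 for single-promoter upstream peaks and 38.4% ± 7.88 for lower-ranked divergent peaks. The SD here is between windows, not libraries. Of the divergent windows 53.0% were below the optimal median of 35.3%, against 44.5% of single-promoter windows (odds ratio 1.40, 1.16 to 1.69, adjusted p = 0.000828) and 36.8% of lower-ranked divergent windows (odds ratio 1.93, 1.63 to 2.30, adjusted p = 1.27e-13, both Fisher's exact tests). With both sets redefined at 1000 bp the first call was lost (odds ratio 1.19, Fisher's exact p = 0.0589, unadjusted). Mean GC content rose from 34.7% at the summit of divergent peaks to 49.96% at 500 bp below and 49.3% at 500 bp above it, and from 36.1% to 42.9% and 43.4% at single-promoter peaks.

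Promoter elements were searched as fixed words on both strands of the same 201 bp windows. They were the DRE TATCGATA; the BEAF-32 core CGATA, which lies within every DRE; motif 1 GGTCACACT; motif 6 GTATNTTT; motif 7 CANCNCTA; the E-box CAGCTG; the TATA box TATAAA; the initiator TCAGTN; the GAGA repeat, searched as GAGAGAG; KLF and SP boxes, searched as the word GGGCGGG, or as the word GGGCGTG, or as the word GGGTGGG, or as the word GGGTGTG; the Pho core GCCAT; CTCF AGGTGGCGC; and the words ACACTG and ACAGTG, of which the first overlaps motif 1 where a G follows it. A match says only that these letters are present in the window.

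Against single-promoter upstream peaks, 6 of the 14 motifs (42.9%) passed the test, 4 higher and 2 lower at divergent promoters. The windows of both sets also differed in where they lay, and whether this accounts for the motifs was not tested. A window of a divergent peak held a TSS in 65.2% of cases and one of a single-promoter peak in 33.9%. Among windows that hold a TSS, 518 divergent and 329 single, none of the 14 passed Fisher's exact test after adjustment and 2 had an unadjusted p under 0.05, the Pho core (26.8% against 34.3%) and the KLF and SP boxes. This restriction was chosen after the data were seen. Over all windows the DRE was in 12.1% of divergent and 5.67% of single-promoter windows (odds ratio 2.28, 95% interval 1.62 to 3.23, adjusted p = 8.95e-06, Fisher's exact test). Among windows with a TSS these shares were 14.7% and 10.9% (odds ratio 1.40, 0.917 to 2.14, adjusted p = 0.290, Fisher's exact test). The BEAF-32 core was in 47.8% against 35.4% of all windows (odds ratio 1.67, adjusted p = 1.01e-06 by Fisher's exact test) and in 53.1% against 51.7% of windows with a TSS (odds ratio 1.06, 0.803 to 1.40).

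The same held for motif 7, an element of housekeeping promoters, which was in 22.6% against 13.9% of all windows (odds ratio 1.81, adjusted p = 8.95e-06, Fisher's exact test) and in 26.6% against 26.1% of those with a TSS. The E-box was in 15.3% against 11.3% (odds ratio 1.42, adjusted p = 0.0372, Fisher's exact test), and among windows with a TSS its odds ratio was below 1, at 0.878. That call held under 6 of 13 alternatives, and was lost without replicate 3 (odds ratio 1.31, adjusted p = 0.104, Fisher's exact test) and with windows of 50 bp to each side (1.12). In windows with a TSS the intervals of the odds ratio were 0.750 to 1.40 for motif 7 and 0.620 to 1.25 for the E-box. For the DRE, the BEAF-32 core, motif 7 and the E-box alike, the interval in windows with a TSS includes 1. These windows are a smaller part of all windows, and no test compared the odds ratios of the part and the whole. The GAGA repeat, bound by the factor Trl, was rarer at divergent promoters, in 1.38% against 6.70% (odds ratio 0.195, adjusted p = 1.50e-07, Fisher's exact test), and in 1.54% against 3.34% of windows with a TSS (odds ratio 0.454, 0.180 to 1.14). The KLF and SP boxes, the class of site that Bteb2's family binds, were in 2.39% against 4.64% (odds ratio 0.503, 0.292 to 0.868, adjusted p = 0.0372, Fisher's exact test). In windows with a TSS they were in 1.93% against 4.56%, with an unadjusted Fisher's exact p of 0.0361 and an adjusted p of 0.229. Their call too held under 6 of 13 alternatives, and was lost when GC content was held in 5 strata (Mantel-Haenszel odds ratio 0.549) and with the rule at 1000 bp (0.749), with odds ratios of 0.372 to 0.749 throughout. Against downstream single-promoter peaks, 5 motifs were called higher at divergent promoters, among them motif 6 (13.6% against 6.64%) and the TATA box (36.0% against 25.6%), and none lower, with GAGA at an odds ratio of 0.479 (adjusted p = 0.222, Fisher's exact test). Motif 1, motif 6, the TATA box, the initiator, the Pho core, CTCF and both words did not pass the test over all windows.

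**Figure D4:**
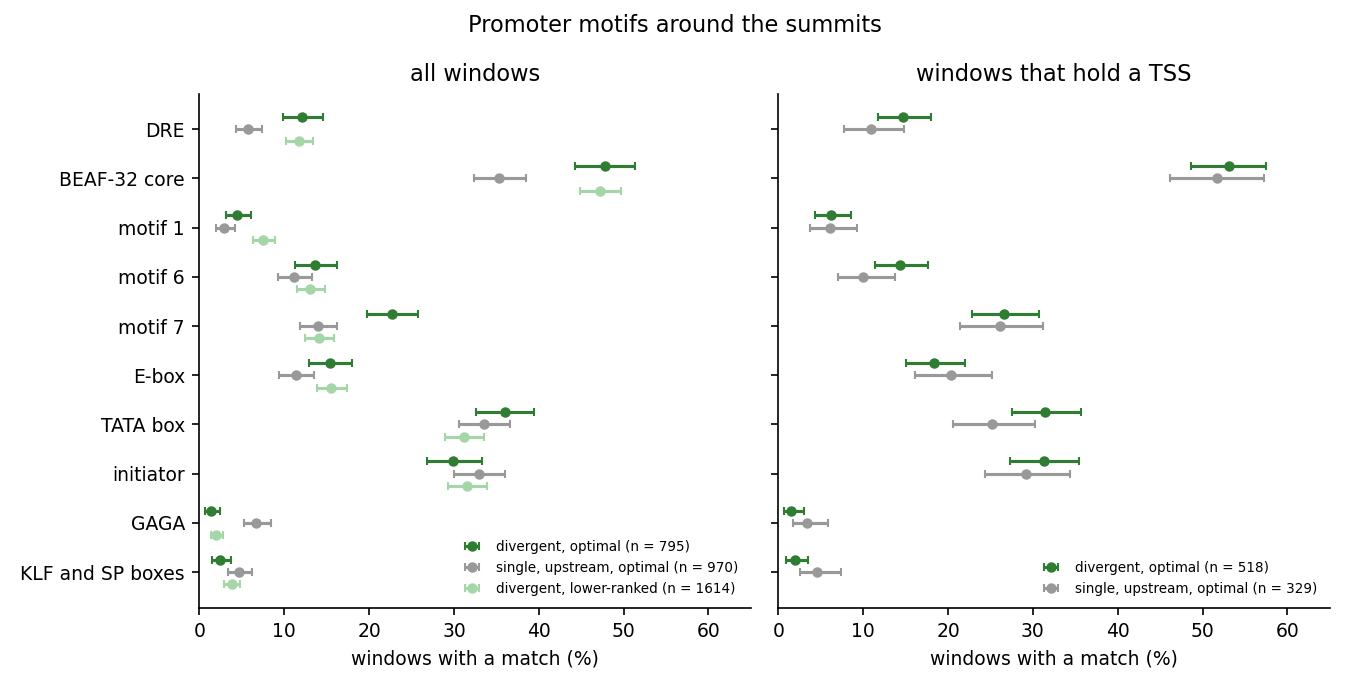
Percent of 201 bp windows with a match to each element, with 95% exact binomial intervals, for optimal divergent peaks, optimal single-promoter upstream peaks and lower-ranked divergent peaks (left), and for the first 2 sets in windows that hold a TSS (right). Motif 7 is at 22.6% against 13.9% on the left and at 26.6% against 26.1% on the right.

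Compared with lower-ranked divergent peaks, of whose windows 65.5% held a TSS, 3 of the 14 motifs (21.4%) passed the test. Motif 7 was more frequent at the optimal peaks, in 22.6% against 14.1% of windows (odds ratio 1.79, 95% interval 1.44 to 2.22, adjusted p = 3.32e-06, Fisher's exact test), and so was the word ACACTG, in 22.6% against 17.3% (odds ratio 1.39, adjusted p = 0.0166). Motif 1 was less frequent, in 4.40% against 7.50% (odds ratio 0.568, 0.386 to 0.836, adjusted p = 0.0166, Fisher's exact test). The DRE, at 12.1% and 11.7%, and the BEAF-32 core, at 47.8% and 47.3%, were at close shares (odds ratios 1.04, 0.797 to 1.34, and 1.02, 0.862 to 1.21). The GAGA repeat was in 1.38% and 1.98% of windows and did not pass (odds ratio 0.694, 0.348 to 1.38). Against only the 795 next-ranked of these peaks, motif 1 alone stayed past the threshold, at an odds ratio of 0.477, and motif 7 had an odds ratio of 1.39 and ACACTG one of 1.19. With windows of 50 bp to each side the odds ratio of motif 7 was 1.27 and no longer passed. Motif 1 no longer passed with 200 bp to each side (odds ratio 0.839, 10.4% against 12.2% of windows) and with the rule at 1000 bp (0.745).

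The DRE, motif 7, motif 1 and the BEAF-32 core were also more frequent at divergent than at single promoters of the genome in general. In windows from 150 bp upstream to 50 bp downstream of the TSS, the DRE was in 11.8% of divergent and 3.43% of single promoters, motif 7 in 17.2% and 7.33%, motif 1 in 7.82% and 2.25%, and the BEAF-32 core in 47.5% and 28.8%, with or without a peak. Over all 20155 promoters the shares were 6.04%, 10.4%, 3.99% and 34.7%. The divergent peaks' 12.1% with a DRE was thus close to that of divergent promoters in general. For motif 7 the peaks' 22.6% was above it, and for motif 1 their 4.40% was below it. KLF and SP boxes were in 2.39% of the peaks' windows, 4.19% of divergent promoters and 4.98% of all promoters. Promoter windows are placed by the TSS and those of the peaks by the summit, and these differences were not tested.

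Within the divergent peaks, matches to the DRE, motif 1 and motif 7 lay close to the start sites, and those to motif 6 and the TATA box farther away. The 101 DRE matches lay between the start sites in 83.2% of cases, a median of 27.5 bp upstream of the nearer TSS. The 35 matches to motif 1 lay a median of 6 bp upstream of it, and 82.9% (95% exact binomial interval 66.4 to 93.4) were read in the direction of the nearer gene. The 210 matches to motif 7 lay a median of 14 bp upstream, and 75.2% (68.8 to 80.9) had that direction. The 119 matches to motif 6 lay a median of 63.5 bp upstream, with 62.2% (52.8 to 70.9) in the nearer gene's direction and 82.4% between the start sites. The 408 TATA-box words lay between the start sites in 81.6% of cases, with 51.7% (46.8 to 56.7) in the nearer gene's direction and a median position of 99 bp upstream. At least 1 of the DRE, motif 1, motif 7 and the E-box was in 355 windows (44.7%), and 2 or more in 68. The DRE and motif 1 were together in 2 windows, and the DRE and motif 7 in 34. A DRE was found at 13.6%, 12.5%, 13.7%, 12.6% and 13.3% of the peaks in the 5 distance classes up to 500 bp, and at 1 of the 75 peaks with start sites 500 to 750 bp apart. At these 75 the nearer TSS was a median of 179 bp from the summit, against 33.5 to 114 bp in the 5 closer classes. Only 100 bp to each side of the summit was searched, and how far this lowers the count was not tested.

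The content of the windows changed with signal, given here as a description since the groups share one list. From the strongest to the weakest of the 4 groups of divergent peaks the BEAF-32 core was in 34.8%, 53.8%, 49.2% and 53.3% of windows, so the strongest group had it least. Motif 1 was in 3.54%, 2.51%, 3.02% and 8.54%, and mean GC content went from 34.6% to 36.6%. The strongest peak with a DRE was that of Atat and Shc, at rank 29, and the strongest with motif 1 was that of Ripalpha, an importer of replication protein A, and the ribosomal gene RpL7, at rank 92 with 242 in replicate 1 and 146 in replicate 3.

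The peaks lay on all major arms and, among these, were least frequent on the X. Divergent promoters had a peak in 25.8% of cases on 3L (95% exact binomial interval 23.3 to 28.4), 25.4% on 3R (23.2 to 27.7), 22.2% on 2L (20.0 to 24.6), 19.9% on 2R (17.8 to 22.2) and 15.5% on the X (13.3 to 18.0). Among these arms, the interval of the X overlaps that of 2R and no other. The small chromosome 4 had a lower share, 3 of 46 divergent promoters (6.52%, 1.37 to 17.9), with 1 divergent peak. Of the divergent peaks 10.4% were on the X, against 15.5% of single-promoter upstream peaks and 18.2% of lower-ranked divergent peaks. The difference between arms was not tested.

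Among the genes at divergent peaks, those of ribosomal proteins were frequent. Of all 13968 protein-coding genes 1476 (10.6%) had such a peak within 500 bp of a TSS, and of the 5536 that have a divergent promoter at all 26.7% did. For the cytoplasmic ribosomal list it was 32 of 92 genes (34.8%), or 55.2% of its 58 divergent genes. The strongest of them were RpS27, which shares its peak with the nuclear pore gene Nup37 (pooled signal 391), RpL7 (388) and RpL34b (326). This list took symbols beginning with RpL or RpS, and some of the 32 end in -like. Not every listed gene need therefore encode a ribosomal protein. For the mitochondrial ribosomal list it was 23 of 73 (31.5%), or 39.7% of its 58 divergent genes, led by mRpS10 (856), mRpS23 (797) and mRpL23 (469.9). These lists were described by counts only, since neighbouring genes, shared peaks and the lists' choice with earlier results known allow no test.

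Other lists of general cell functions lay above or near the background. Of the vacuolar sorting genes 9 of 27 had a divergent peak (47.4% of those divergent), led by Vps33B, opposite the proprotein convertase gene Fur1 (441), Vps36 (188) and Vps50 (178). RNA polymerase subunits had 8 of 30 (42.1% of those divergent), with Polr2H (161) and Polr2J (156) among them, and the cytosolic chaperonin that folds actin and tubulin had 3 of 8, CCT3 (94.2), CCT7 (91.9) and CCT8 (85.9). Aminoacyl-tRNA synthetases had 8 of 35, with SerRS (261), IleRS (159.9) and GluProRS (147) the strongest. General transcription factors and Mediator had 10 of 49, which is 27.0% of those divergent and close to the 26.7% of all divergent genes, with MED30 (295), MED27 (218) and MED4 (178) leading.

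The remaining lists had between 0 and 22.2% of their genes with a divergent peak. The respiratory chain and ATP synthase list had 12 of 88 genes (13.6%, and 25.5% of those divergent), led by ND-ASHI (254), ND-MWFE (225) and ND-51 (200.2), which are all complex I subunits. The proteasome had 8 of 48 (30.8% of those divergent), with Rpn5 (178), Rpn3 (165) and Rpn6 (120), all of the regulatory particle. Translation initiation, listed by symbols beginning with eIF, had 7 of 44 (31.8% of those divergent), with eIF6 (571), eIF4EHP (215) and eIF1 (184). Of these, eIF6 is the ribosome assembly factor gene named above, so not every listed gene need encode an initiation factor. The nuclear pore had 4 of 21 (22.2% of those divergent), led by Nup37 (391), Nup160 (199.7) and Nup98-96 (167). DNA replication had 2 of 20 (15.4% of those divergent), Mcm5 (98.4) and PolE4 (71.2). The anaphase-promoting complex had 1 of 11 (16.7% of those divergent), Cdc16 (129), and the COP9 signalosome 1 of 8 (20% of those divergent), CSN3 (98.0). The 4 transport protein particle genes, of which 3 are divergent, had none. By share of divergent genes, the proteasome and translation initiation lists lay above the 26.7% of all divergent genes. The respiratory chain, nuclear pore, DNA replication, anaphase-promoting complex, COP9 signalosome and transport protein particle lists lay below it. Symbols beginning with Rrp gave 2 of 9, the exosome nuclease gene Rrp6 (104) and Rrp1 (126), which encodes a DNA repair nuclease and shares only the letters. No pair had both partners in the same list.

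**Figure D5:**
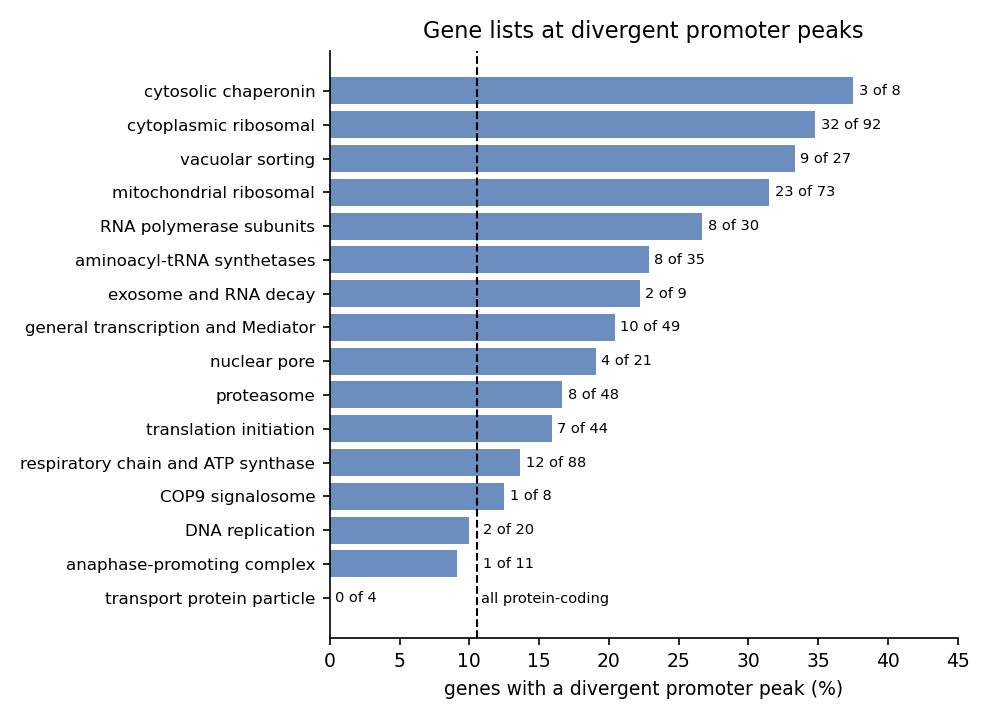
Percent of the genes of each list with a divergent promoter peak within 500 bp of a TSS, with the counts beside the bars; the dashed line is the 10.6% of all protein-coding genes. The ribosomal lists, vacuolar sorting and the small chaperonin list lie above 30%. The anaphase-promoting complex, DNA replication and transport protein particle lists lie at or below the line.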

How the data were processed

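Peak lists of 2 libraries on the dm6 build were analysed, with lists on another build not used here. Per the labels and the files' notes, the authors made a relaxed list for each replicate and for the pooled replicates, each of 30000 peaks, and an optimal list of 3350 peaks kept by the irreproducible discovery rate method. For the aligner, peak caller and threshold, nothing is given in the sources used. The deposited signal value (column 7 of the narrowPeak order) is the authors' measure of a peak, on a scale that is not stated, and the deposited −log10 q-value was read only to check the lists. Read depth, reads and controls were not analysed here.

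The members and lists were chosen with earlier results of these data known. Summits were placed against the Ensembl annotation of the Release 6 assembly, transposable elements left out, with 1-based coordinates, and sequences came from that assembly. Shares were compared by two-sided Fisher's exact tests over peaks, windows or promoters, with odds ratios and Woolf 95% intervals. Benjamini-Hochberg adjustment ran over 7 comparisons or within each family of 14 motifs, at 0.05. Peaks are not replicates of a condition, so these tests compare classes of sites in 1 pooled list, and neighbouring sites share libraries. Named genes are the partners at the 12 strongest members, the 3 strongest genes of each list, the strongest pairs with a DRE or motif 1 and the pairs whose sequence is printed; 1 gene that the rule names is not reported here, and genes named in the closing part were chosen after their values were seen. Tools were SciPy 1.17.1, statsmodels 0.14.6, NumPy 2.4.6, pandas 2.3.3 and matplotlib 3.10.9 under Python 3.11.15, and the motif test was tested on simulated data.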

Additional observations from a re-analysis of the deposited data

How the results depend on the processing

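The count of 795 was 515 with both start sites within 250 bp and 444 above the median signal of the optimal list, and 762 to 808 from one library alone. From one library alone, using its own strongest 3350 peaks, the odds ratio of divergent against single promoters was 4.51 to 5.19, that of signal 1.04 to 1.15 against upstream and 1.94 to 2.21 against downstream peaks, that of summits between the start sites 2.58 to 2.92, that of low GC content 1.27 to 1.47, and 7 motifs were called against single-promoter peaks in both cases. The odds ratio of divergent against single promoters kept its direction and side of the threshold under all 8 alternatives (2.97 to 5.19), as did that of summits between the start sites under all 7 (2.13 to 3.76). Signal had an odds ratio of 1.47 at 250 bp and 0.994 at 1000 bp against upstream peaks, and 1.19 at 1000 bp against downstream peaks. Replicate recovery, whose interval spans 1, changed direction at 250 bp (1.37), with the strongest peak of each pair (1.06), with summits between the start sites (1.01) and with 1 bp of overlap (1.06). Low GC content had 1.19 at 1000 bp. The number of motifs called against single-promoter peaks was 3 with 50 bp to each side, 10 with 200 bp and 0 in windows with a TSS, where the E-box turned to 0.878. Against lower-ranked divergent peaks it was 6 at 1000 bp, 5 with 200 bp to each side and 1 against the next-ranked, and ACACTG turned to 0.973 at 250 bp. Settings of 250 or 1000 bp redefine the comparison sets too. The cause of these changes was not tested. Of the single motifs' 108 alternative values 78 kept their call. No paired analysis was possible because the samples form 1 group. Without reads, depth could not be weighed.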

Other observations

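Genes for proteins that bind the elements of these promoters, or that work with such proteins, were themselves partners at divergent peaks. They were picked out after the values were seen. Dref, whose product binds the DRE, shared a peak with the ribosomal gene RpL13 at rank 649, with signals of 94.6 in replicate 1 and 68.8 in replicate 3, and start sites 84 bp apart. M1BP, whose product binds motif 1, had 2 peaks towards CG8202, with pooled signals of 89.97 and 67.9. BEAF-32 had 2 peaks opposite the antisense gene asRNA:CR42254, at 88.4 and 68.4. Cp190, which encodes an insulator cofactor, had 2 towards CG4338, at 257 and 96.8, and the strongest divergent peak of all, at 869, was that of Chro, whose product works with BEAF-32. The other genes of such factors were not searched, so these are values and no count.

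The divergent pair of ferritin subunit genes, Fer1HCH and Fer2LCH, which encode the heavy and light chains of the iron store, had 2 peaks with pooled signals of 344 and 71.2. The start sites lay 98 bp apart by the nearest transcripts at the stronger peak and 652 bp at the weaker one, since the genes have several starts. Both lay close to 1 peak of replicate 3, with a signal of 116, so that library does not separate them. The Polycomb group gene Su(z)12 also had 2 peaks towards the prefoldin gene Pfdn6, at 188 and 70.2.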
